A study of Homo sapiens with 4 samples.

Results

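The aldo-keto reductases and aldehyde dehydrogenases described here are 10 genes, AKR1A1, AKR1B1, AKR1B10, AKR1C1, AKR1C2, AKR1C3, AKR1C4, ALDH1A1, ALDH3A1 and ALDH3A2. Their probes were found on the array as the non-control probes that carried the gene's symbol or 1 of its RefSeq transcripts, which gave 16 of 50238 probes and at least 1 probe for each of the 10 genes. The samples were cultures of A549, a human lung adenocarcinoma cell line that is known to carry an inactive KEAP1. Total RNA from 2 untreated control samples and from 2 samples given 15 µM embelin, a benzoquinone from Embelia ribes, was taken after 4 h and hybridized with a single dye to 1 array each. Both groups were kept in medium with reduced serum before treatment, the label of the controls does not state whether they received the solvent, and all 4 arrays lay on 1 slide.

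Aldo-keto reductases use NADPH to turn aldehydes and ketones, among them sugars, retinal, steroids and prostaglandins, into alcohols. Aldehyde dehydrogenases take the opposite route and oxidise aldehydes to acids with NAD or NADP. Many members of both families are targets of NRF2, the transcription factor that KEAP1 holds back, and are abundant in lung cancer cells without working KEAP1.

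None of the 9 member genes tested passed the adjusted threshold after embelin, in either direction, beside 1.25% of all genes called higher and 0.561% called lower. In all 9, beside 56.1% of all genes, the mean of the embelin arrays was lower than that of the control arrays, by between 0.08 for AKR1C2 and 0.82 for ALDH3A2 on the log2 scale, with a median log2 fold change of -0.15 against -0.06 over all 17649 genes tested. ALDH3A2, the fatty aldehyde dehydrogenase, had the largest difference, 1.77-fold lower with embelin. For the other 8 genes the 95% interval of the difference, on the brightest probe of each, lay inside a 2-fold change either way. That of the dimmer AKR1C2 probe did not, at -1.32 to -0.09. AKR1C4 was the member not tested, since its probe did not rise above background on both arrays of either group.

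The AKR1C probes need a word on sequence before their values. AKR1C1, AKR1C2, AKR1C3 and AKR1C4 lie beside each other on chromosome 10, with AKR1C8 between AKR1C3 and AKR1C4. AKR1B1, AKR1B10 and AKR1B15 lie in a row on chromosome 7, and ALDH3A2 and ALDH3A1 are neighbours on chromosome 17. Of the 16 member probes, 3 shared a run of at least 16 bases with a probe of another gene. A further point is that 2 of the 16, both AKR1C1 probes, are listed in the files with transcripts of AKR1C1 and of AKR1C2, so that on them the signals of these 2 genes cannot be told apart. The brightest AKR1C1 probe, which is 1 of these 2, and the AKR1C3 probe are shown because they cover the same stretch of their transcripts. They overlap over 41 bases, of which 37 are the same (capitals), 4 differ, and the longest shared run is 21 bases:
AKR1C1 probe: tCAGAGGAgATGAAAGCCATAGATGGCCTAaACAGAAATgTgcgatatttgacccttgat
AKR1C3 probe: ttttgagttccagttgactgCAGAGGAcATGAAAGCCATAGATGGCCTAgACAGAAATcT

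The third AKR1C1 probe lies at the start of the coding sequence and is listed for AKR1C1 alone. Its first bases were set against the RefSeq windows around the transcript starts (GRCh38.p14). All 21 bases that could be compared were the same in AKR1C1, while in AKR1C2, at chr10:5003808-5003836 on the minus strand, 28 of 29 bases were the same and 1 differed. In AKR1C3 and AKR1C4, 17 of 20 bases were the same. The probe and the AKR1C2 stretch are given with their shared bases in capitals:
AKR1C1 probe at the 5′ end: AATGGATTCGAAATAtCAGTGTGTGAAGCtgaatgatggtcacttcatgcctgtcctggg
AKR1C2 reference: AATGGATTCGAAATAcCAGTGTGTGAAGC

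The second AKR1B10 probe overlaps the probe of its neighbour AKR1B15 over 43 bases, with 40 the same (capitals), 3 different and a longest shared run of 22 bases:
AKR1B10 probe: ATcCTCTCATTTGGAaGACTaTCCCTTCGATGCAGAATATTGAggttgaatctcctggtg
AKR1B15 probe: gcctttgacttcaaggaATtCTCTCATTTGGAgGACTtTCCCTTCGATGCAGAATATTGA

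How far a transcript of 1 gene binds the probe of its relative was not tested on these arrays. The values that follow are log2 signals after the 75th percentile of each array was set to the same level, and signals of different probes are not compared as levels. With 2 arrays a group an exact two-sided permutation test on a single gene cannot go below p = 0.333, so the p-values come from limma, which shares the spread over genes, with Benjamini-Hochberg adjustment over all genes tested. Over all genes 221 were called higher with embelin and 99 lower.

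Among the AKR1C enzymes, AKR1C1 inactivates progesterone by reducing its 20-keto group. Its brightest probe read 16.93 and 16.89 in the control arrays and 16.80 and 16.73 in the embelin arrays. Both embelin arrays were below both control arrays, with a log2 fold change of -0.14 ± 0.16 (SE, adjusted p = 0.679 from limma) and a 95% interval from -0.58 to 0.29. The other AKR1C1 probes did not separate the groups. The second, also listed for AKR1C2, read 16.29 and 16.17 in controls and 16.35 and 16.14 with embelin, a difference of 0.014. The third, at the 5′ end, read 13.06 and 12.60 in controls and 12.90 and 12.73 with embelin, a difference of -0.02. In the fourth, which the files name AKR1C1 and tie to a GenBank cDNA, the values were 9.45 and 9.27 against 8.93 and 9.59, a difference of -0.10. On all 3 of these probes the embelin arrays overlapped the control arrays.

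AKR1C2, which reduces dihydrotestosterone to a weak androgen, had 2 probes of its own, found through a transcript of AKR1C2 that the files still name LOC100134257. Both were tied to the same transcript, and whether they read other AKR1C2 transcripts was not tested. The brighter of these probes read 7.87 and 7.59 in controls and 7.69 and 7.62 with embelin. The groups overlapped, and the log2 fold change was -0.08 ± 0.19 (SE, adjusted p = 0.866 from limma, 95% interval -0.59 to 0.43). With control replicate 1 dropped it was 0.061, and with control replicate 2 dropped -0.22. The dimmer probe read 7.32 and 6.89 in controls and 6.41 and 6.40 with embelin, so that both embelin arrays were lower. Its log2 fold change in the fit of single probes was -0.70 ± 0.23 (SE, unadjusted p = 0.0327, adjusted p = 0.232 over all probes from limma). The 95% interval of this probe, from -1.32 to -0.09, reached past a 2-fold change. The gap between the dimmer and the brighter probe was -0.55 and -0.70 in the control arrays and -1.28 and -1.22 in the embelin arrays. The pair of AKR1C2 probes thus disagreed by 0.63 in log2 on the size of the difference, and the cause was not tested.

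AKR1C3 forms testosterone and prostaglandin F from their keto precursors. Its probe read 17.12 and 17.11 in controls and 17.04 and 16.97 with embelin. Both embelin arrays were lower, by a log2 fold change of -0.11 ± 0.16 (SE, adjusted p = 0.751 from limma) with a 95% interval from -0.55 to 0.32. AKR1C4, the bile acid and steroid reductase typical of liver, read 4.25 and 3.81 in controls and 3.80 and 3.84 with embelin. It was well above background on 1 of 2 control arrays and on 0 of 2 embelin arrays, and no fold is given.

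**Figure D1:**
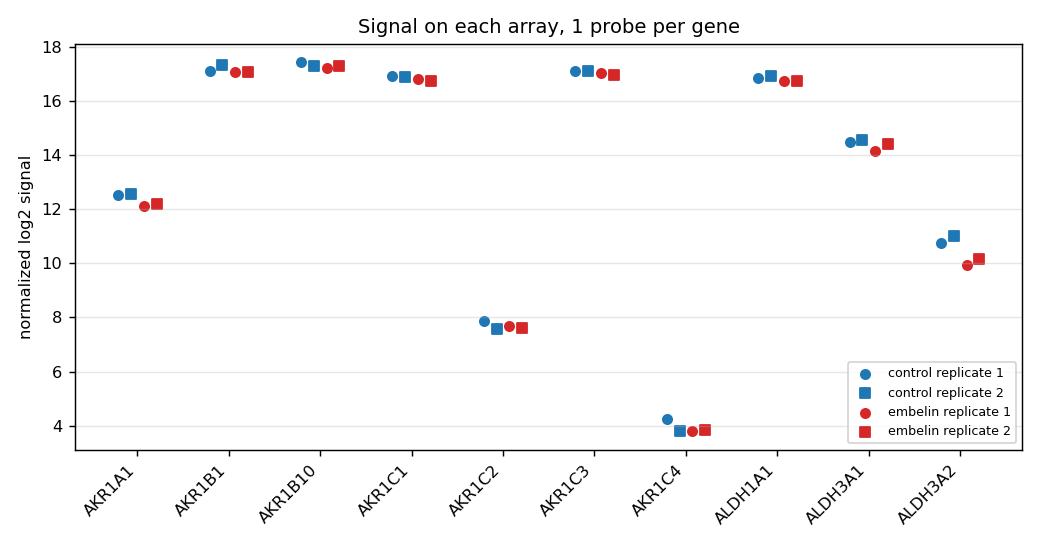
Normalized log2 signal (vertical axis) of the 10 member genes (horizontal axis) on the 2 control arrays (blue) and the 2 embelin arrays (red), with 1 probe per gene and circles and squares for replicates 1 and 2. The embelin points lie close under the control points in most genes, ALDH3A2 shows the widest gap, and AKR1C4 lies near 4 where its probe was not well above background on most arrays.

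In the AKR1B branch, AKR1B1 is aldose reductase, which makes sorbitol from glucose. It read 17.10 and 17.33 in controls and 17.07 and 17.07 with embelin. Both embelin arrays were below both controls, but the spread of the controls was larger than the gap to the lower of them, and the log2 fold change was -0.15 ± 0.18 (SE, adjusted p = 0.708 from limma, 95% interval -0.62 to 0.33). Dropping control replicate 1 gave -0.26 and dropping control replicate 2 gave -0.033. AKR1B10, a retinal reductase that is often abundant in lung tumours of smokers, read 17.43 and 17.30 in controls and 17.22 and 17.28 with embelin. The difference was -0.11 ± 0.16 (SE, adjusted p = 0.778 from limma, 95% interval -0.56 to 0.34), without overlap, and dropping control replicate 1 or 2 gave -0.043 or -0.17. On its second probe, the one that resembles AKR1B15, the values were 17.13 and 17.01 against 16.96 and 17.02, with overlap and a difference of -0.08. The AKR1B15 probe had a log2 fold change of -0.20 ± 0.25 (SE, adjusted p = 0.721 from limma), and its groups overlapped. How far AKR1B10 transcripts bind that probe was not tested.

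AKR1A1 is the broad aldehyde reductase that also acts on glucuronate. Its brighter probe read 12.54 and 12.55 in controls and 12.10 and 12.19 with embelin, so that both embelin arrays were lower by more than the replicates differed. The log2 fold change was -0.40 ± 0.16 (SE, unadjusted p = 0.0642, adjusted p = 0.287 from limma, 95% interval -0.83 to 0.04). The dimmer probe of AKR1A1 read 10.15 and 10.44 in controls and 9.91 and 10.15 with embelin. It differed by -0.27 in the same direction, but embelin replicate 2 lay just under control replicate 1.

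Among the aldehyde dehydrogenases, ALDH1A1 makes retinoic acid from retinal and is widely used as a marker of stem-like cells. It read 16.85 and 16.92 in controls and 16.73 and 16.73 with embelin. Both embelin arrays were lower, with a log2 fold change of -0.16 ± 0.16 (SE, adjusted p = 0.647 from limma, 95% interval -0.59 to 0.28). ALDH3A1, which oxidises aromatic and medium chain aldehydes, read 14.49 and 14.54 in controls and 14.14 and 14.42 with embelin. The embelin arrays were both lower but spread more than the controls, and the log2 fold change was -0.24 ± 0.19 (SE, adjusted p = 0.553 from limma, 95% interval -0.75 to 0.27). Dropping embelin replicate 1 gave -0.093 and dropping embelin replicate 2 gave -0.38.

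ALDH3A2, the microsomal enzyme that oxidises long chain fatty aldehydes and is deficient in Sjögren-Larsson syndrome, read 10.75 and 11.00 in controls and 9.95 and 10.17 with embelin. The embelin arrays lay clear of both controls, by more than either pair of replicates differed. The log2 fold change was -0.82 ± 0.19 (SE, unadjusted p = 0.0123, adjusted p = 0.133 from limma), with a 95% interval from -1.35 to -0.29. It was the only member whose interval reached past a 2-fold change on the probe that stood for the gene. In cell cultures such as these, fewer cells with the transcript and less transcript per cell cannot be told apart.

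**Figure D2:**
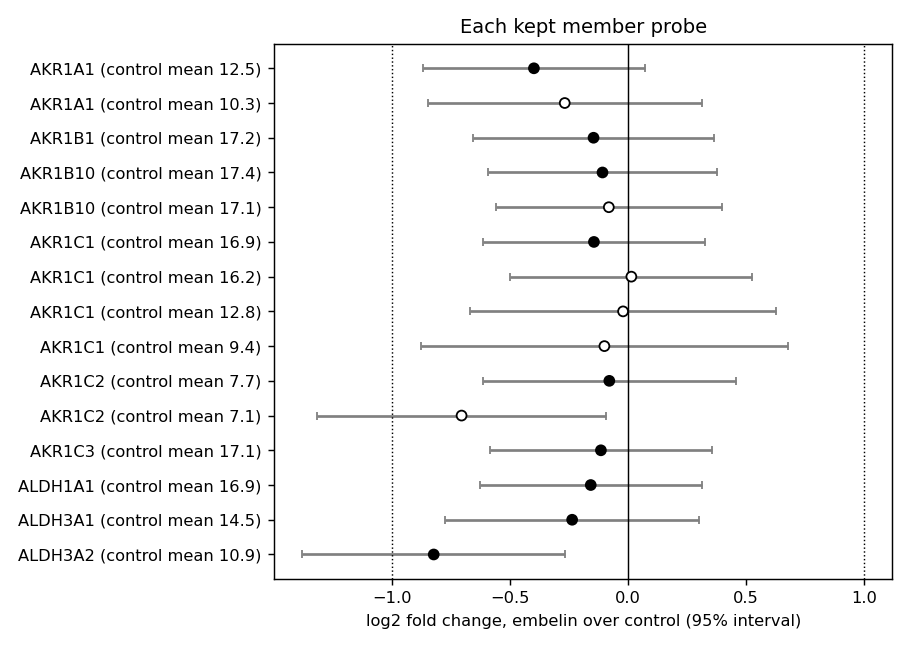
Log2 fold change of embelin over control (horizontal axis) with its 95% interval for each of the 15 member probes tested (vertical axis), from the fit of single probes. Filled points are the probe that stands for the gene, open points are further probes, and dotted lines mark a 2-fold change. The intervals of ALDH3A2 and the dimmer AKR1C2 probe lie below 0 and those of the other 13 probes include it.

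Over the 9 genes tested, limma called 0 higher and 0 lower after adjustment, and 1 gene, ALDH3A2, had an unadjusted p under 0.05, as did 19.5% of all genes. With the methods' t-test 3 genes, AKR1A1, ALDH1A1 and ALDH3A2, had an unadjusted p under 0.05, as did 15.6% of all genes, and 0 of the 9 passed after adjustment. No member passed the threshold of a 2-fold change with an unadjusted p under 0.05, which 4.26% of all genes passed upwards and 3.99% downwards. In 8 of the 9 genes both embelin arrays were below both control arrays, against 30.7% of all genes, and in 0 of the 9 were both above, against 21.1%. These counts rest on the probe that stood for each gene, and the gene whose groups overlapped there was AKR1C2. The further probes of AKR1C1 and AKR1B10 overlapped as well, while the dimmer AKR1C2 probe did not. The 95% interval lay inside a 2-fold change in 8 of the 9 members and in 52.9% of all genes. The standard errors of the members ran from 0.16 to 0.19, and the median distance from the estimate to the end of its interval was 0.45 in log2. In the limma fit smaller shifts were thus in general not detectable even before adjustment. The t-test, with the spread of each gene alone, gave ALDH1A1 at -0.16 an unadjusted p of 0.0494. After adjustment limma also left shifts larger than 0.45 uncalled. ALDH3A2 at -0.82 had an adjusted p of 0.133 from limma. BACH1, not a member, had 1.41 ± 0.17 (SE) and an adjusted p of 0.0521 from limma.

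Of the 15 member probes tested on their own, 14 were lower with embelin and 1, the second AKR1C1 probe, was higher, while 54.6% of all probes tested were lower. In 10 of the 15 both embelin arrays were below both control arrays, against 28.3% of all probes. None was called after adjustment over probes, where the share of all probes called was 0.83% upwards and 0.249% downwards. ALDH3A2 had the lowest adjusted p among them, 0.160 from limma. At an unadjusted p under 0.05 stood 2 of them, ALDH3A2 and the dimmer AKR1C2 probe, which is 2 of 15 beside 17.9% of all probes.

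Of the members, 5 belonged to the 278 genes with a mean log2 signal of at least 16: AKR1B1, AKR1B10, AKR1C1, AKR1C3 and ALDH1A1. On the probe that stood for each gene, these 5 had log2 fold changes from -0.16 to -0.11. The AKR1C1 probe among them is also listed for AKR1C2. The second probes of AKR1C1 and AKR1B10, with means above 16 too, had 0.014 and -0.08, and their groups overlapped. The median over the 278 bright genes was 0.03, with both embelin arrays below both controls in 16.5% and above them in 17.3%, and 4 of the 278 were called higher and 0 lower. No array had a saturated probe.

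The arrays differed in the share of probes that the scanner software called well above background. Control replicate 1 and embelin replicate 2 had 66.75% and 66.41%, and control replicate 2 and embelin replicate 1 had 50.29% and 51.15%. The median local background over spots, in scanner units, did not follow these pairs, at 24, 23, 25 and 25 for control replicates 1 and 2 and embelin replicates 1 and 2, and its SD was 14.01 on embelin replicate 1 against 1.72 to 3.04 on the others. The members were also compared within the 2 pairs of arrays of like share. Embelin was lower in 9 of 9 genes in the pair with the higher share, by a median of -0.16 with a range from -0.59 to -0.04. It was lower in 8 of 9 in the pair with the lower share, with a median of -0.20 and a range from -1.06 to 0.09, and the gene above 0 there was AKR1C2. ALDH3A2 differed by -0.59 in the first pair and by -1.06 in the second, and AKR1A1 by -0.35 and -0.45.

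**Figure D3:**
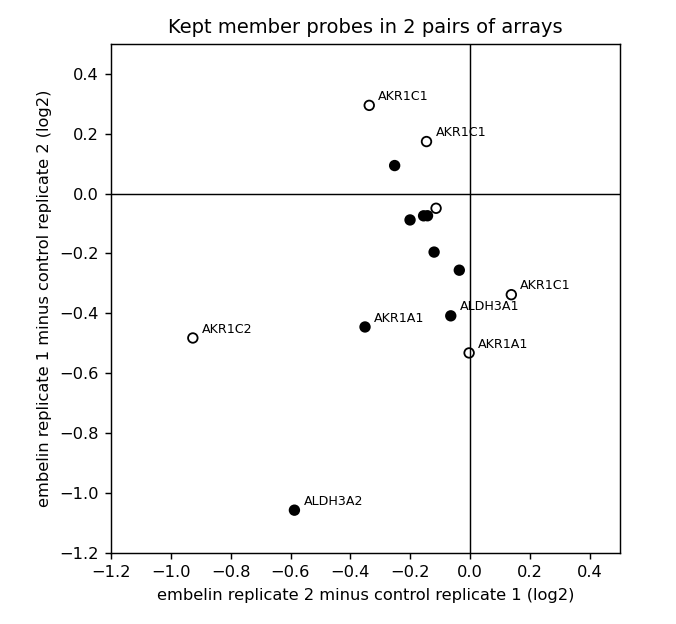
Difference between embelin and control in log2 signal for the 15 member probes tested, in the pair of arrays with the higher share of probes above background (horizontal axis, embelin replicate 2 minus control replicate 1) and in the pair with the lower share (vertical axis, embelin replicate 1 minus control replicate 2). Filled points stand for the gene and open points are further probes; most points lie in the lower left where both pairs were lower with embelin, and ALDH3A2 is the lowest of them.

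The other genes of both families were read next to the members. Of 9 other aldo-keto reductases 6 could be tested, with 0 called in either direction and a median log2 fold change of -0.06. KCNAB2, a beta subunit of potassium channels with the aldo-keto reductase fold, had -0.32 ± 0.22 (SE) on its brighter probe, while its dimmer probe had 1.09. That dimmer probe was well above background on 1 of 2 control arrays and was kept through the embelin arrays. AKR7A3, an aflatoxin aldehyde reductase, had -0.08 ± 0.21 (SE). Of 16 other aldehyde dehydrogenases 12 could be tested, again with 0 called and a median of -0.15. Mitochondrial ALDH1B1 read 9.87 and 10.34 in controls and 8.81 and 9.30 with embelin, a log2 fold change of -1.05 ± 0.28 (SE, adjusted p = 0.164 from limma), and its second probe gave -0.82. ALDH1L2, of mitochondrial folate metabolism, had -0.69 ± 0.52 (SE) with overlap, from -1.30 to -0.093 when control replicate 1 or 2 was left out, and ALDH4A1, of proline breakdown, had -0.47 ± 0.24 (SE).

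Genes of neighbouring metabolism gave no calls either. Of 16 carbonyl reductases and alcohol dehydrogenases 11 were tested and 0 were called. All 11 log2 fold changes were below 0, beside 56.1% of all genes, with a median of -0.10 against -0.06 over all genes. The carbonyl reductase DHRS2 had -0.46 ± 0.16 (SE, adjusted p = 0.250 from limma) and sorbitol dehydrogenase, SORD, had -0.28 ± 0.22 (SE). The further SORD probes had -0.008 and -0.16. ADH1C had -0.89 ± 1.11 (SE), a value that rests on 1 embelin array since the spot on embelin replicate 1 was left out as an outlier. Of 20 steroid enzymes 12 were tested with 0 called and a median of -0.09. HSD17B7, of cholesterol synthesis, had -0.67 ± 0.20 (SE), HSD17B1, which makes estradiol, had -0.52 ± 0.23 (SE), and HSD17B11 had -0.48 ± 0.16 (SE). The further kept probes of HSD17B1 disagreed, at -0.09, 0.34 and -0.79.

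Of 20 retinoid genes 17 were tested with 0 called and a median of -0.14. The retinoic acid receptor RARA read 10.49 and 11.03 in controls and 12.42 and 12.99 with embelin, a log2 fold change of 1.95 ± 0.32 (SE, adjusted p = 0.0758 from limma), while its dimmer probe gave 0.41 with overlap. RARA was called higher under 3 of 15 alternatives, with adjusted p from 0.0157 to 0.594 over them. The receptor RARG had -0.97 ± 0.23 (SE, adjusted p = 0.135 from limma). CYP26A1, which breaks down retinoic acid, read 8.37 and 8.36 in controls and 7.12 and 7.60 with embelin, with an adjusted p = 0.126 from limma.

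Regulators and targets of NRF2 were read because many members are NRF2 targets. Of 24 other NRF2 targets all 24 were tested, 0 were called, and the median log2 fold change was -0.12, with 9 above and 15 below 0. HMOX1, heme oxygenase, read 13.73 and 14.25 in controls and 16.25 and 15.90 with embelin, which was 2.08 ± 0.27 higher in log2 (SE, adjusted p = 0.0547 from limma). GCLC, which makes the first step of glutathione synthesis, had 0.74 ± 0.18 (SE, adjusted p = 0.138 from limma), and the glutathione peroxidase GPX2 had -0.51 ± 0.28 (SE), from -0.85 to -0.17 when embelin replicate 1 or 2 was left out. HMOX1 was called higher under 3 of 15 alternatives (adjusted p from 0.00668 to 0.412 over them) and GCLC under 1 (0.0418 to 0.618).

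Of 8 regulators of NRF2, 2 were called higher and 0 lower, with a median of 0.37. Both were small Maf proteins, which pair with NRF2 or with its competitor BACH1 on DNA. MAFF read 7.60 and 7.78 in controls and 11.13 and 10.92 with embelin, and rose by 3.34 ± 0.18 in log2 (SE, adjusted p = 0.0204 from limma). MAFK read 11.84 and 12.00 in controls and 14.43 and 14.64 with embelin, and rose by 2.62 ± 0.18 in log2 (SE, adjusted p = 0.0246 from limma). The dimmer probe of MAFK did not separate the groups, with 5.88 and 8.67 in controls and 7.69 and 7.90 with embelin. BACH1 had 1.41 ± 0.17 (SE, adjusted p = 0.0521 from limma) and was called higher under 3 of 15 alternatives (adjusted p from 0.0106 to 0.413 over them). NRF2 itself, NFE2L2, had 0.20 ± 0.28 (SE), and KEAP1 had -0.26 ± 0.22 (SE). The last pair were named after their values were seen.

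The 5 targets of the aryl hydrocarbon receptor, which is also known to act on ALDH3A1, had a median of 0.71, with 1 called higher and 0 lower. The called gene was TIPARP, which modifies the receptor and restrains it. It read 11.77 and 11.89 in controls and 13.91 and 13.71 with embelin, and rose by 1.98 ± 0.18 in log2 (SE, adjusted p = 0.0355 from limma). CYP1B1 had 0.71 ± 0.38 (SE), from 0.27 to 1.15 when control replicate 2 or 1 was left out, and the receptor's repressor AHRR 0.68 ± 0.30 (SE). The dimmer AHRR probe had 1.32, but was well above background on 1 of 2 control arrays and was kept through the embelin arrays. CYP1A1 was well above background on 1 of 2 control arrays and so fell outside the rule for named genes. Named after its values were seen, it had 2.14 ± 0.31 (SE, adjusted p = 0.0628 from limma). The calls of MAFF, MAFK and TIPARP were lost whenever 1 of the 4 arrays was left out, where limma called 0 genes, with adjusted p from 0.0567 to 0.213. Their log2 fold changes then stayed between 3.24 and 3.44 for MAFF, 2.51 and 2.72 for MAFK, and 1.88 and 2.08 for TIPARP. Over all 15 alternatives MAFF was called 7 times, TIPARP 6 times and MAFK 5 times.

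**Figure D4:**
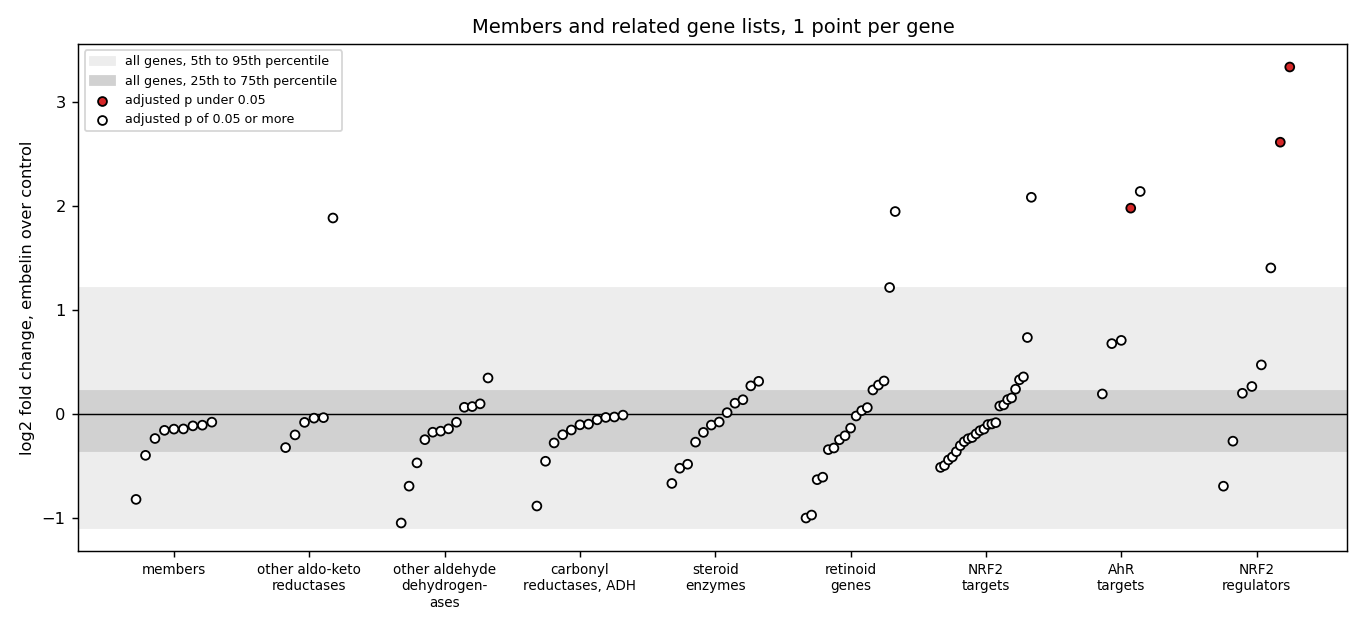
Log2 fold change of embelin over control (vertical axis) for each tested gene of the members and of 8 related lists (horizontal axis), over the middle 50% (dark band) and 90% (light band) of all genes. Red points had an adjusted p under 0.05 in limma and are MAFF, MAFK and TIPARP; the 9 members lie between -0.82 and -0.08, inside the light band.

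The starts of the member genes were searched for the core of the antioxidant response element, TGACNNNGC, on both strands of the RefSeq windows of 300 bases (GRCh38.p14). These letters were in 13.3% of the 35116 windows of all genes and in 0 of the 11 windows of the 8 member genes found there. This says only that the letters are not in those short windows. The windows of AKR1C1 and AKR1C2 had 97.3% of aligned bases in common, 288 of 296, while AKR1C1 shared 77.4% and 75.3% with the windows of AKR1C3 and 66.2% with that of AKR1C4.

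As a check of the cells, 6 of 6 epithelial markers (EPCAM, CDH1, KRT7, KRT8, KRT18 and KRT19) were well above background on all 4 arrays. Of 11 markers of leukocytes, endothelium and fibroblasts 2 were, CD14 and COL1A1. COL1A1 had a log2 fold change of 1.30 ± 0.17 (SE, adjusted p = 0.0547 from limma) and CD14 of -0.60 ± 0.21 (SE). Their part in the members' values was not tested.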

How the data were processed

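RNA of 4 A549 samples was measured on 1-colour Agilent arrays. The authors deposited spot intensities from Feature Extraction 10.7.3.1, background-subtracted and detrended within each array, with surrogates for spots not above background and no normalization between arrays. Their 75th percentiles were 601 to 739. The authors' methods name the 75th percentile shift and Student's t-test.

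Here spots with an outlier mark (47 to 743 an array) were dropped, the percentiles were equalised, scaled values under 1 were set to 1, spots of a probe were averaged, and log2 was taken. A probe was kept if well above background on both arrays of a group (26146 probes). The brightest kept probe stood for a gene. Names came from accessions for 28595 probes, from another probe for 2341 and from the files for 19302; the files' grid is built on hg18. Groups, 2 arrays each, were taken from the sample labels and compared in R 4.3.3 with limma 3.58.1 (lmFit, eBayes), called at an adjusted p under 0.05 over 17649 genes, or over 26145 probes. The fit was also run on data simulated from its own fitted spread, which checks the calculation and not whether the model holds for these arrays. The labels do not say whether replicates were separate cultures, so p-values may measure technical spread, and the number of arrays limits precision.

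The members and the 8 related lists were chosen with earlier results of these data known. Named were all members and, per related list, each called gene and the 3 largest changes among genes well above background on all 4 arrays. Alternatives were normexp (offset 50) on the unprocessed means, the authors' table of probe values, normalization by quantiles, 2 filters, the t-test, eBayes with trend and robust, a block for replicate number or for the array pairs of like share of probes above background, other probes of a gene, and leaving out each array.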

Additional observations from a re-analysis of the deposited data

How the results depend on the processing

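No member was called under any of the 15 alternatives. ALDH3A2 ranged from -0.95 to -0.70 in log2 (adjusted p 0.0603 to 0.597). Leaving out 1 array moved AKR1B1 (-0.26 to -0.033), AKR1B10 (-0.17 to -0.043), ALDH3A1 (-0.38 to -0.093), KCNAB2 (-0.49 to -0.16), ALDH1L2 (-1.30 to -0.093), ALDH4A1 (-0.66 to -0.28), GPX2 (-0.85 to -0.17), SORD (-0.49 to -0.071), HSD17B1 (-0.71 to -0.33), CYP1B1 (0.27 to 1.15) and AHRR (0.31 to 1.04) by over 1.5 times. Signs turned for AKR1C1 with its second brightest probe (0.014). When 1 array was left out in turn AKR1C2 ranged from -0.22 to 0.061, AKR1B15 from -0.45 to 0.045, AKR7A3 from -0.28 to 0.11 and ADH1C from -2.005 to 0.23. Signs also turned for KCNAB2 and AKR7A3 with the second brightest probe (1.09 and 0.48) and with the mean over probes (0.39 and 0.20), and for ADH1C with the deposited table (2.64) and with a block for the array pairs (0.23). The second probes of KCNAB2 and AKR7A3 were each well above background on 1 of 2 control arrays and were kept through the embelin arrays. The causes were not tested.

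HMOX1, RARA and BACH1, not called as reported, were called with normexp (adjusted p 0.0297, 0.0397 and 0.0249), with probes well above background on all 4 arrays (0.0227, 0.0346 and 0.0231) and with trend and robust (0.00668, 0.0157 and 0.0106), as was GCLC with trend and robust (0.0418). MAFF, MAFK and TIPARP lost their calls with the replicate block (0.0698, 0.0698 and 0.0843), the block for the array pairs (0.182 each), the t-test and no filter. MAFK also lost its call with the mean over probes (0.242) and the second brightest probe (0.845). TIPARP had a single probe, which was kept in the setting of the second brightest probe too. Its adjusted p there was 0.0513, with only the probes of other genes changed.

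The share of all genes called moved more, from 1.25% higher and 0.561% lower (320 genes in all). It was 2.57% and 1.54% with normexp (725), 0.714% and 0.187% with the deposited table (159), 2.70% and 2.22% for probes well above background on all 4 arrays (764), 3.27% and 2.88% with trend and robust (1065), and 0.606% and 0.13% with the second brightest probe (130). The lower share was 0.357% with quantile normalization and 0.317% with the mean over probes. With no filter, with the t-test and with a block for the array pairs 0% were called either way, and leaving out 1 array gave 0% to 0%. At an unadjusted p under 0.05 these tests had 2131 to 3050 genes.

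The labels link same-numbered arrays by a number alone and do not say whether they were handled together. The deviations of these arrays correlated at 0.175 over 17298 genes. With the replicate block limma called 0% higher and 0% lower, 3743 genes had an unadjusted p under 0.05, and ALDH3A2 had an adjusted p of 0.142. Signal over background limits AKR1C4, and 2 arrays a group limit the rest.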
